A study of Mus musculus with 12 samples.

Results

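The mRNA levels of 10 genes of the lysosome were measured in the left ventricles of 12 mice: 6 cathepsins (Ctsb, Ctsd, Ctsk, Ctsl, Ctss and Ctsz), the membrane proteins Lamp1 and Lamp2, the transcription factor Tfeb and progranulin (Grn). They were chosen by name, as the rows of the deposited table whose NCBI Gene identifiers map to these symbols, and are 10 of its 18079 genes. The identifiers are 13030 for Ctsb, 13033 for Ctsd, 13038 for Ctsk, 13039 for Ctsl, 13040 for Ctss, 64138 for Ctsz, 16783 for Lamp1, 16784 for Lamp2, 21425 for Tfeb and 14824 for Grn. The mice came from a study of hispidulin, a plant flavone, in hearts placed under pressure overload by aortic banding (AB), in which the descending aorta is narrowed by a ligature. By the labels, all 12 animals were C57BL/6 mice (C57BL/6J in the study's methods), 8 weeks old at the operation and 12 weeks old at harvest, and all received a daily intraperitoneal injection from 1 day ahead of the operation until harvest 4 weeks later. The DMSO+Sham group received the solvent and a sham operation, the Hispidulin+Sham group hispidulin (20 mg/kg/day) and a sham operation, the DMSO+AB group the solvent and banding, and the Hispidulin+AB group hispidulin and banding, with 3 mice and 1 library per mouse in each group. The labels name no transgene or deletion, and no group received banding or a sham operation without an injection.

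Lysosomes are acidic vesicles in which proteins, lipids and sugars delivered by endocytosis and autophagy are broken down. Cathepsins are the proteases that work there: they are made as inactive precursors, are activated at low pH, and several are also secreted and can cut matrix proteins. In the heart, autophagy and lysosomal breakdown clear worn-out mitochondria and proteins of cardiomyocytes, while macrophages and fibroblasts carry cathepsins of their own.

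Tfeb, the factor that switches on many lysosome genes, binds a short DNA element whose core is CACGTG, so the promoters of the 10 genes were searched for it. Promoter entries of RefSeq (build GRCm38.p6, from 250 bases before to 50 bases after the start) were held for 9 of the 10 genes, all but Ctsb. The letters CACGTG, which read the same on both strands, were found for 3 of these 9 genes. Among all promoters in the table, 7.15% of 32851 hold them, and among the tested genes with an entry, 11.9% of 9319 genes do. The longer form TCACGTG, searched on both strands and always containing CACGTG, was found for Lamp1 and Ctsd, in 3.77% of all promoters and for 7.08% of the tested genes with an entry. The Ctsl promoter held CACGTG once, 236 bases before the start. The promoters of Lamp1 and Ctsd are shown because they hold the most copies. Each sequence below is the 250 bases before the start in the direction of the gene, and capitals mark CACGTG.
Lamp1, chr8:13158911-13159160, plus strand: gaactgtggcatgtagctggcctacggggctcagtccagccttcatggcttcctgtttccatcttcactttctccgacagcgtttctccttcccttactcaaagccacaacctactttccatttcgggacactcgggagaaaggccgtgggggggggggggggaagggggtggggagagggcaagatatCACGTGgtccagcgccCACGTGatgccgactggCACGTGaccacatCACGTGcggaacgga
Ctsd, chr7:142387828-142388077, minus strand: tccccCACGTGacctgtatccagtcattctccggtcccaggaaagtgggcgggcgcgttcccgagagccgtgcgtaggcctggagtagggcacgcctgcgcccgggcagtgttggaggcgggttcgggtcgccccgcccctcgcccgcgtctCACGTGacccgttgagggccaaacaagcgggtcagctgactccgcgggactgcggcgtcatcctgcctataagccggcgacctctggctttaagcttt
The 4 copies of Lamp1 began 61, 45, 28 and 15 bases before the start, and those of Ctsd 245 and 98 bases before it. These matches describe the letters only, and no binding was measured here.

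The authors deposited FPKM, a count of reads scaled by transcript length and library size, so that levels can be compared between genes. The sums over all genes lay between 535235 and 567027 per library. Read numbers were not analysed here, and the counting error behind a value is therefore unknown. All 9 cardiomyocyte markers searched, among them Mb and Myl2, were detected, with a summed FPKM from 44835 (DMSO+Sham 3) to 63606. Hispidulin+Sham 3 led the sham hearts in the sum of 4 atrial markers, at 1740 FPKM against 90.3 to 309 in the others. In the banded hearts this sum, which includes Nppa, was 683, 6215 and 5743 in DMSO+AB and 680, 1052 and 941 in Hispidulin+AB. The atrial light chains Myl4 and Myl7 were at 325 and 333 FPKM in Hispidulin+Sham 3. They were at 75.8 and 67.5 in DMSO+AB 2 and at 39.0 and 42.3 in Hispidulin+AB 3, against at most 19.5 and 15.03 in the other libraries. The library DMSO+Sham 3 had the highest value of the 12 libraries in 22.1% of the 11664 genes tested and in 5 of the 10 lysosome genes, and the lowest in 13.6% and in 3 of the 10. DMSO+AB 3 was similarly often at an end, with the lowest value in 22.7% of all genes and 1 of the 10 and the highest in 14.8% and 3 of the 10. In DMSO+Sham 3, Saa3, an acute-phase protein, was at 624 FPKM against at most 2.18 in any other library, and Lcn2, a protein of neutrophils and inflamed tissue, at 273 against at most 30.6 (both genes were singled out after their values were seen). The summed FPKM of 15 macrophage markers in DMSO+Sham 3 was 636, against 286 to 581 in the other libraries, and that of 6 neutrophil markers was 65.8, against 2.01 to 40 in the others. Differences of the 10 genes that rest on it are therefore given with and without it.

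Taken by level, Ctsd led the 10 genes with a median of 723 FPKM over the 12 libraries, followed by Ctsb at 321, Lamp1 at 248, Ctsl at 126, Lamp2 at 66.8, Grn at 47.5, Ctsz at 21.8, Ctss at 17.6, Tfeb at 15.1 and Ctsk at 3.01. Of the neighbours in this order, the ranges over libraries were apart for Ctsd and Ctsb, for Ctsl and Lamp2, and for Tfeb and Ctsk. The other neighbours overlapped in range, although within each of the 12 libraries Ctsb was above Lamp1 and Grn above Ctsz. Ctsd, an aspartic protease, and Ctsb, a cysteine protease, are found in nearly every cell type. The spread between libraries was small for the abundant genes: the highest library exceeded the lowest by 1.27-fold for Lamp1, 1.31-fold for Ctsb and 1.54-fold for Ctsd. It was 3.98-fold for Ctsl, 4.61-fold for Ctss and 11-fold for Ctsk.

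**Figure D1:**
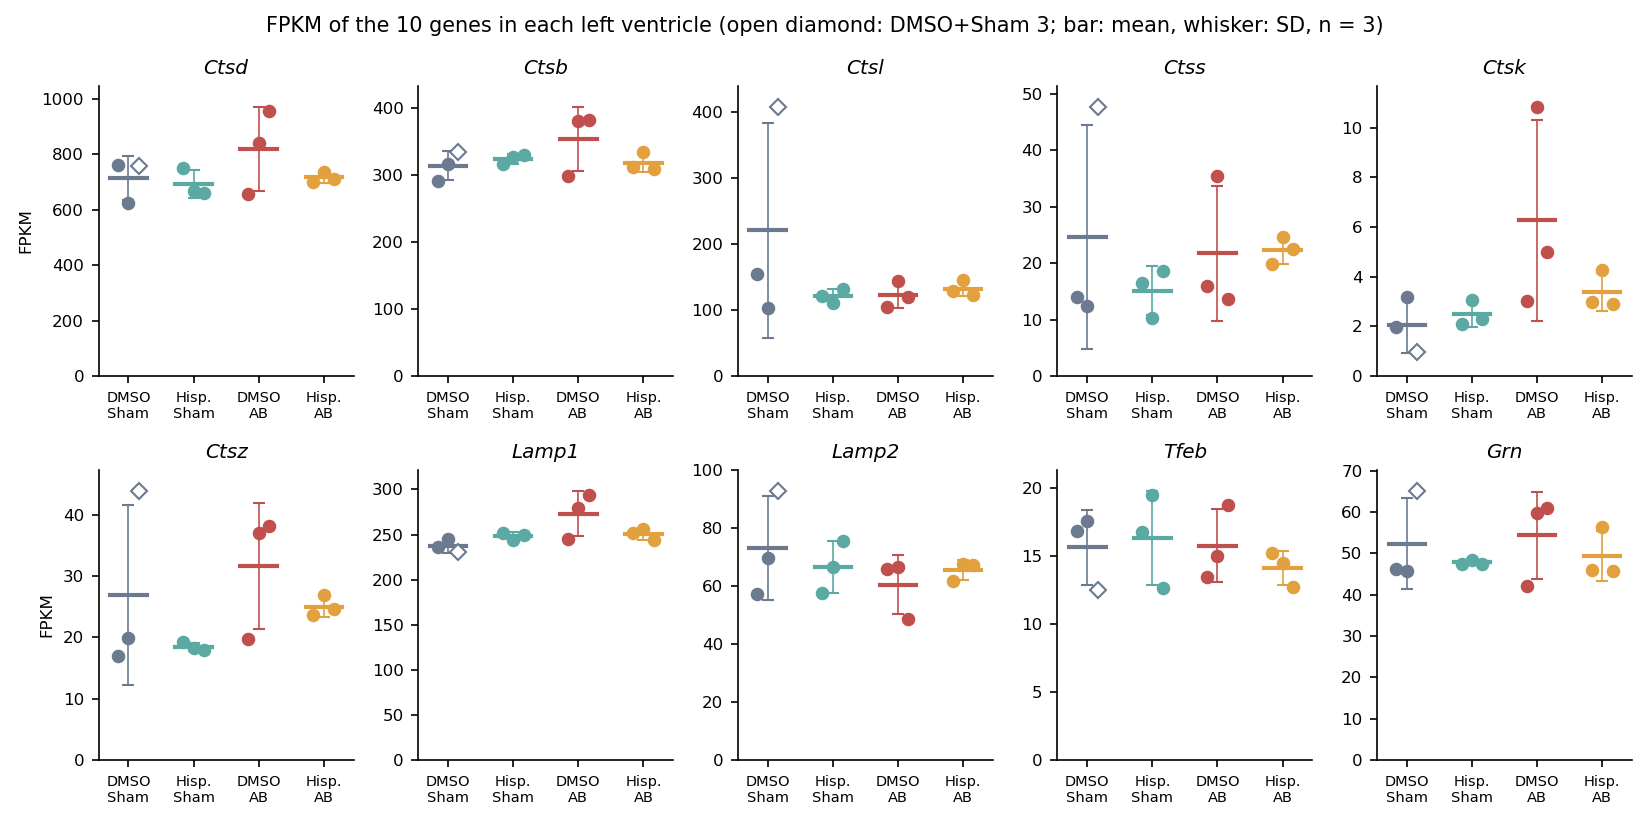
FPKM of each of the 10 genes (linear axes starting at 0) in the 4 groups. Each point is 1 mouse, the horizontal bar the mean and the whisker the SD of 3 mice, and the open diamond is DMSO+Sham 3, which reached 407 FPKM for Ctsl, where the other 11 libraries lay between 102 and 154.

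After banding in mice that received DMSO, Ctsk had the largest difference of the 10 genes, Lamp1 was higher in every banded heart than in any sham heart, and the others overlapped between the groups. The comparison asks how pressure overload without the drug altered these genes. Of the 10, 0 passed an adjusted p under 0.05 (limma on log2(FPKM + 1), Benjamini-Hochberg adjustment over 11664 genes), against 5.21% of all genes tested. Without DMSO+Sham 3 the count was also 0, against 4.27% of all genes. The number of all genes that passed moved with the libraries fitted. It was 608 with all of them, 91 without DMSO+Sham 1, 104 without DMSO+AB 2 and 190 without DMSO+AB 3. It was 1050 without DMSO+Sham 2 and 953 without DMSO+AB 1. Without the 3 libraries high in Myl4 and Myl7 it was 20, and it was 11 of 11360 when only the 6 libraries compared were fitted. At an unadjusted p under 0.05, 2 of the 10 passed (Ctsk and Lamp1), against 20.4% of all genes. The median difference of the 10 genes was 0.11 on the log2 scale, with 7 positive, against -0.035 over all genes, of which 44.2% were positive. Without DMSO+Sham 3 the median of the 10 was 0.21, also with 7 positive, against -0.0115 over all genes.

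Ctsk encodes cathepsin K, the collagen-cutting protease best known from osteoclasts and also made by fibroblasts. Its levels in the DMSO+Sham hearts were 1.99, 3.20 and 0.98 FPKM. In the DMSO+AB hearts they were 3.03, 10.8 and 4.99 FPKM. The groups overlapped only through DMSO+AB 1 and DMSO+Sham 2, and DMSO+AB 2 was the highest of all 12 libraries. The difference was 1.17 on the log2(FPKM + 1) scale (SE 0.35, 95% interval 0.41 to 1.93), with an adjusted p = 0.0767 in limma and an exact permutation p = 0.2, where 3 mice against 3 cannot give less than 0.1. Without DMSO+Sham 3, the lowest library for this gene, it was 0.89 (95% interval 0.13 to 1.66, limma adjusted p = 0.179). Without DMSO+AB 2, the highest library, it was 0.75 (limma adjusted p = 0.22), and without the 3 libraries high in Myl4 and Myl7 it was also 0.75 (limma adjusted p = 0.339). The part of atrial tissue in the values of Ctsk was not tested beyond this. Over 16 alternative settings the difference ran from 0.75 to 1.53 and the limma adjusted p from 0.0181 to 0.339 and was under 0.05 in 4 of them: with library weights, where 12.2% of all genes passed, with the replicate number as a block (5.49% of all genes), without DMSO+Sham 2 (9.02%) and without DMSO+AB 1 (8.18%). The side of the threshold on which Ctsk falls thus depends on the setting.

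In the mice that received hispidulin, Ctsk was at 2.10, 3.06 and 2.29 FPKM after the sham operation and at 2.99, 4.27 and 2.90 FPKM after banding. These groups also overlapped, and their difference was 0.33 on the log2 scale (95% interval -0.43 to 1.09, limma adjusted p = 0.921). Averaged over DMSO and hispidulin, AB exceeded Sham by 0.75 (SE 0.25, 95% interval 0.21 to 1.29, limma adjusted p = 0.0874, exact stratified permutation p = 0.03, smallest possible 0.005), and by 0.61 without DMSO+Sham 3 (limma adjusted p = 0.126). Under the same 4 settings this average passed, beside 21.7%, 7.42%, 10.4% and 10% of all genes. By group mean the order was DMSO+AB (6.28 ± 4.05), Hispidulin+AB (3.39 ± 0.766), Hispidulin+Sham (2.48 ± 0.508) and DMSO+Sham (2.06 ± 1.11, SD, n = 3 each), and no neighbours in this order were separated beyond their SDs. The animal numbers in the labels fall into separate series, and neither these nor the labels name a batch. Within the animals whose numbers begin with 52 AB exceeded Sham by 0.36 (2 AB, 3 Sham), and within those beginning with 67 by 1.14 (4 AB, 2 Sham). With DMSO+Sham 3 left out the latter was 0.77, against 1 sham library, Hispidulin+Sham 3, the highest in Myl4 and Myl7. DMSO and hispidulin were pooled within each series, so these values do not separate surgery from treatment.

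Markers of fibroblasts were read beside Ctsk. Their summed FPKM (11 genes) ran from 385 to 508 in DMSO+Sham, 403 to 546 in Hispidulin+Sham, 455 to 1052 in DMSO+AB and 458 to 711 in Hispidulin+AB, and no marker was listed at 0 in every library. In DMSO+AB against DMSO+Sham all 11 differences were positive, as were 44.2% over all genes. Col1a1, Postn and Col1a2 rose (3 of 11, beside 5.21% of all genes passing). Without DMSO+Sham 3 Postn alone did (1 of 11, beside 4.27%). In Hispidulin+AB against Hispidulin+Sham, 0 of 11 passed, as did 0% of all 11664 genes. There 10 of the 11 markers were positive (median 0.16), beside 45.1% of all genes. DMSO+AB 2, the highest library for Ctsk, was also the highest for this sum. In whole tissue, more cells of a type and more RNA per cell cannot be told apart, and the part of fibroblasts in the values of Ctsk was not tested. Over the 12 libraries the tested genes whose log2 values were most like those of Ctsk were C1qtnf5 (Pearson r = 0.96), Sfrp2 (0.95) and Fam171a2 (0.94), given as a description of the same libraries.

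**Figure D2:**
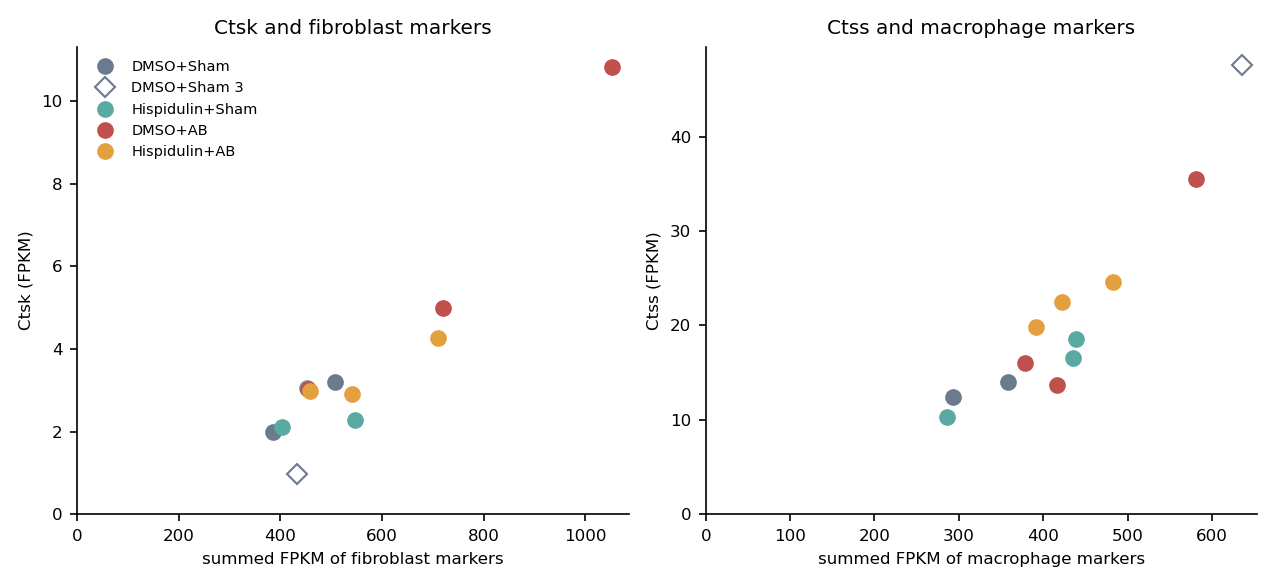
Ctsk (FPKM) against the summed FPKM of 11 fibroblast markers, left, and Ctss (FPKM) against the summed FPKM of 15 macrophage markers, right, on linear axes. Each point is 1 mouse coloured by group, and the open diamond is DMSO+Sham 3. DMSO+AB 2 lies at the top right for Ctsk (10.8 FPKM, marker sum 1052), and DMSO+Sham 3 does so for Ctss (47.6 FPKM, marker sum 636).

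Ctss encodes cathepsin S, a protease of antigen-presenting cells, and lies next to Ctsk on chromosome 3. Its 3 DMSO+Sham libraries were at 14.0, 12.4 and 47.6 FPKM, and its DMSO+AB libraries at 16.03, 35.5 and 13.7 FPKM. DMSO+Sham 3 was the highest of all 12, and the other sham hearts lay near the low end of the range. The difference was -0.03 with all libraries (SE 0.45) and 0.56 without DMSO+Sham 3 (SE 0.33, limma adjusted p = 0.392). It was 0.11 without DMSO+AB 1, 0.22 without DMSO+AB 3 and 0.61 with library weights, so its sign is not set by these data. With hispidulin, the sham hearts were at 16.6, 10.3 and 18.5 FPKM and the banded hearts at 19.8, 24.6 and 22.5 FPKM. Every banded heart of this pair of groups was above every sham heart, yet the difference of 0.56 (SE 0.45) had a limma adjusted p = 0.879 and an exact permutation p = 0.1, the smallest 3 against 3 can give. Groups failed to overlap in the direction of higher levels in 9.14% of all genes in that comparison. The summed neutrophil markers also did not overlap there, at 24 to 40 FPKM in Hispidulin+AB against 2.01 to 15.6 FPKM in Hispidulin+Sham, with 5 of 5 tested markers positive (median 1.67). Of 14 macrophage markers tested, 12 were positive (median 0.21). Their part in the Ctss values was not tested.

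Markers of macrophages were read beside Ctss. After banding with DMSO, 5.21% of all genes passed (4.27% without DMSO+Sham 3) and 44.2% were positive. Of the 14 markers tested none passed (9 of 14 positive, median 0.13), and without DMSO+Sham 3 Cd14 rose and 14 of 14 were positive. Their sum ran from 293 to 636 in DMSO+Sham, 286 to 439 in Hispidulin+Sham, 378 to 581 in DMSO+AB and 391 to 483 in Hispidulin+AB. The genes most like Ctss over the 12 libraries were Ncf4 (Pearson r = 0.96), Cd53 (0.94) and Tyrobp (0.94), of which Tyrobp is in the marker list, and without DMSO+Sham 3 these values were 0.94, 0.90 and 0.91. The part of macrophages in the values of Ctss was not tested.

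Ctsz encodes cathepsin Z, a carboxypeptidase also abundant in macrophages. The DMSO+Sham hearts held 17.0, 19.9 and 43.8 FPKM, and the DMSO+AB hearts 19.8, 37.0 and 38.2 FPKM. DMSO+Sham 3 was again the highest of the 12, and DMSO+AB 1 lay just below DMSO+Sham 2. The difference was 0.29 (SE 0.30, limma adjusted p = 0.63, and 0.09 to 0.979 over the alternatives to this fit). Without DMSO+Sham 3, itself 1 of these alternatives, it was 0.69 (SE 0.22, limma adjusted p = 0.102). The hispidulin groups did not overlap: the sham hearts were at 19.2, 18.2 and 17.9 FPKM and the banded hearts at 23.6, 26.8 and 24.6 FPKM (difference 0.42, SE 0.30, limma adjusted p = 0.859, exact permutation p = 0.1). Averaged over DMSO and hispidulin, AB exceeded Sham by 0.35 (SE 0.21, limma adjusted p = 0.361, and 0.0251 to 0.715 over the alternatives to this fit). Without DMSO+Sham 3, itself 1 of these alternatives, the average was 0.56 (SE 0.15, limma adjusted p = 0.0387). Ctsz was then 1 of 10 genes called, against 9.65% of all genes tested in that fit. In the same fit 14 of 14 macrophage markers were positive (median 0.30) and 1 of them, Cd14, rose. At an unadjusted p under 0.05 there were 7 of the 14, beside 2976 of all 11603 genes. The part of these markers in the value of Ctsz was not tested. AB minus Sham was 0.65 within the animals whose numbers begin with 52 (2 AB, 3 Sham) and -0.10 within those beginning with 67 (4 AB, 2 Sham). Without DMSO+Sham 3 the latter was 0.52, against 1 sham library, Hispidulin+Sham 3. Both treatments were pooled within each series.

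Ctsl encodes cathepsin L, a cysteine endopeptidase that takes part in protein turnover in cardiac muscle. Its DMSO+Sham libraries were at 154, 102 and 407 FPKM, and its DMSO+AB libraries at 105, 144 and 120 FPKM. The value in DMSO+Sham 3 was 3.3 times the median of the other 11 libraries, and those 11 spanned 102 to 154 FPKM. With all libraries the difference was -0.61 (SE 0.36, limma adjusted p = 0.373), and without DMSO+Sham 3 it was -0.05 (SE 0.18). Hispidulin+Sham against DMSO+Sham gave -0.62 (SE 0.36) with that library and -0.06 (SE 0.18) without it. The interaction of hispidulin and AB was 0.74 (SE 0.51) with it and 0.17 (SE 0.24) without it, with a limma adjusted p of 1 in both fits. The libraries of Hispidulin+Sham were at 121, 110 and 132 FPKM and those of Hispidulin+AB at 129, 145 and 123 FPKM, which overlap. The likeness of other genes to Ctsl rested on the same library in part: Bnip3, Prpf6 and Cd47 followed it with r = 0.97, 0.97 and 0.95 over 12 libraries, and with 0.88, 0.81 and 0.55 over the 11 others.

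**Figure D3:**
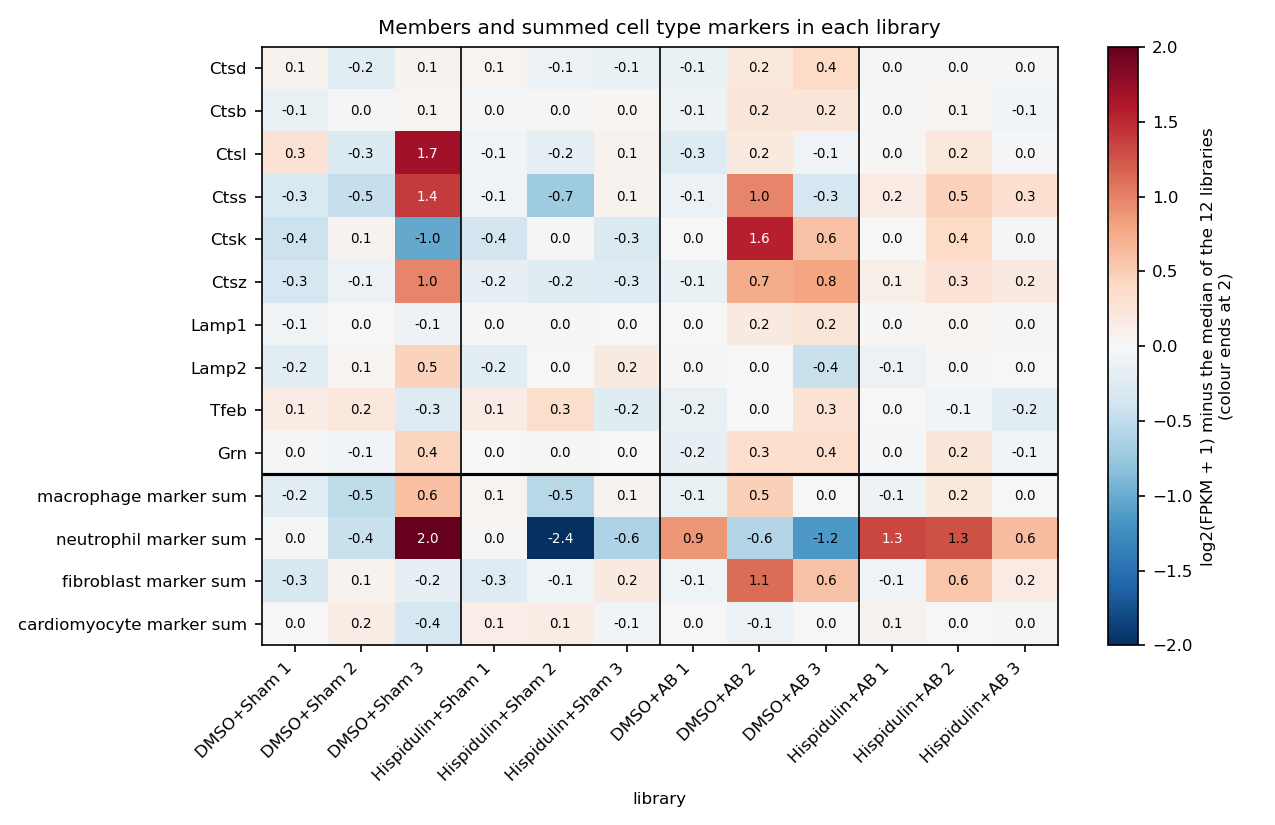
Difference of log2(FPKM + 1) from the median of the 12 libraries, per gene (upper block) and for the summed FPKM of macrophage, neutrophil, fibroblast and cardiomyocyte markers (lower block), with the 4 groups divided by vertical lines. DMSO+Sham 3 is red for Ctsl, Ctss, Ctsz, Lamp2 and Grn and blue for Ctsk, and DMSO+AB 2 and DMSO+AB 3 are red for Ctsk, Ctsz and Grn.

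Ctsd and Ctsb, the most abundant of the 10, had differences under 0.20 after banding with DMSO. Ctsd was at 762, 623 and 758 FPKM in DMSO+Sham and at 657, 839 and 956 FPKM in DMSO+AB. Ctsb was at 291, 317 and 334 FPKM in DMSO+Sham and at 299, 380 and 382 FPKM in DMSO+AB. For both genes DMSO+AB 2 and DMSO+AB 3 lay above every sham heart, while DMSO+AB 1 lay among them. The differences were 0.18 for Ctsd (SE 0.13, limma adjusted p = 0.47) and 0.16 for Ctsb (SE 0.10, limma adjusted p = 0.406), and without DMSO+Sham 3 they were 0.23 and 0.21. The counting of reads could also have divided them between genes: 36.6% of the 50-base stretches of the Ctsd transcript also occur in Gm49369, and 15.4% of those of Ctsb in Fdft1, against none for Ctsk, Ctsl, Ctss, Ctsz, Lamp2, Tfeb and Grn (GENCODE M21).

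Lamp1 and Lamp2 encode the main glycoproteins of the lysosomal membrane, and Lamp2 is needed for the fusion of autophagosomes with lysosomes. Lamp1 was at 236, 245 and 231 FPKM in DMSO+Sham and at 246, 280 and 294 FPKM in DMSO+AB. The groups did not overlap, although DMSO+AB 1 was above the highest DMSO+Sham heart by less than 1 FPKM. Among all genes, 7.18% did not overlap in this direction in the comparison. The difference was 0.20 (SE 0.08, exact permutation p = 0.1, limma adjusted p = 0.204, and 0.0618 to 0.543 over the alternatives to this fit). Without DMSO+Sham 3, itself 1 of these alternatives, it was 0.18 (limma adjusted p = 0.336). The genes most like Lamp1 were Igfbp6, Trim47 and Mrps23, each with r = 0.96. Of its 50-base stretches, 7.11% also occur in the neighbouring gene Grtp1. Lamp2 had means of 73.2 ± 18.0 FPKM in DMSO+Sham and 60.5 ± 10.1 FPKM in DMSO+AB (SD, n = 3), with DMSO+Sham 3 the highest library at 92.7 FPKM and DMSO+AB 3 the lowest at 48.8 FPKM. Its difference of -0.26 (SE 0.17, limma adjusted p = 0.44) became -0.08 without DMSO+Sham 3. Across the 12 libraries Lamp1 and Lamp2 were related by r = -0.58, and Sppl2a, an intramembrane protease, was the gene most like Lamp2 (r = 0.98).

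Tfeb, the transcription factor, was at 16.8, 17.6 and 12.5 FPKM in DMSO+Sham and at 13.5, 15.02 and 18.7 FPKM in DMSO+AB. The groups covered nearly the same range. Its difference was 0.01 (SE 0.17, 95% interval -0.37 to 0.39) and turned to -0.13 without DMSO+Sham 3, so neither sign is set by these data. An mRNA level does not show how much of the protein is in the nucleus, where Tfeb acts. Grn encodes progranulin, a secreted protein that is carried to lysosomes and cut there. It had means of 52.3 ± 11 FPKM in DMSO+Sham and 54.4 ± 10.6 FPKM in DMSO+AB (SD, n = 3), with DMSO+Sham 3 the highest library at 65.0 FPKM. Its difference was 0.05 (SE 0.16), and 0.22 without that library. Over the 12 libraries, Grn varied most like Ctsz among the 10 genes (r = 0.89), ahead of Ctsb (0.80), Ctsd (0.71), Ctsl (0.65), Ctss (0.62) and Lamp1 (0.43). Without DMSO+Sham 3 the order changed, with 0.92 for Ctsb, 0.87 for Lamp1 and 0.84 for Ctsz. Ctsb and Lamp1 had r = 0.82 over 12 libraries and 0.94 over 11.

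Hispidulin+AB was compared with DMSO+AB to ask whether the drug altered these genes in banded hearts. Of the 10 genes, 0 passed, as did 0% of all 11664 genes (limma; 362 genes at an unadjusted p under 0.05, of which 0 were among the 10). Without DMSO+AB 1, 20 genes passed (4 higher and 16 lower), again with 0 of the 10. No member's groups were free of overlap, against 7.88% of all genes. The differences were negative for 7 of the 10, with a median of -0.13 against 0.005 over all genes. Ctsk had the largest, at -0.60 (95% interval -1.36 to 0.16), which became -0.18 without DMSO+AB 2 and -0.95 without DMSO+AB 1. It was followed by Ctsz at -0.27 (-0.94 to 0.39) and Ctsd at -0.17 (-0.46 to 0.11). The values for Ctsb, Tfeb, Lamp1 and Grn were -0.14, -0.14, -0.12 and -0.12, and those for Ctss, Lamp2 and Ctsl were 0.15, 0.13 and 0.12. The limma adjusted p-values ran from 0.996 to 0.998, which does not show that the groups are alike: the interval for Ctss reached from -0.83 to 1.14 and that for Lamp1 from -0.30 to 0.06. This comparison and that of DMSO+AB with DMSO+Sham share the DMSO+AB hearts, so a high DMSO+AB library moves them in opposite directions. For Ctsk, DMSO+AB 2 at 10.8 FPKM and DMSO+AB 3 at 4.99 FPKM stood above the Hispidulin+AB hearts, which did not exceed 4.27 FPKM, and DMSO+AB 1 at 3.03 FPKM lay among them. The interaction of hispidulin and AB for Ctsk was -0.84 (SE 0.49, 95% interval -1.92 to 0.23, limma adjusted p = 1), and -0.56 without DMSO+Sham 3. Leaving out DMSO+AB 2 gave -0.42, the value nearest 0 when 1 library was left out, and leaving out DMSO+AB 1 gave -1.20, the farthest. Of 11 fibroblast markers, 8 were negative in Hispidulin+AB against DMSO+AB (median -0.14) and 0 passed. In the interaction 11 were negative (median -0.49, or -0.28 without DMSO+Sham 3) and 0 passed. Over all genes, 51.4% of the differences were positive in the former and 53.4% in the latter. The part of fibroblasts in these values of Ctsk was not tested.

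**Figure D4:**
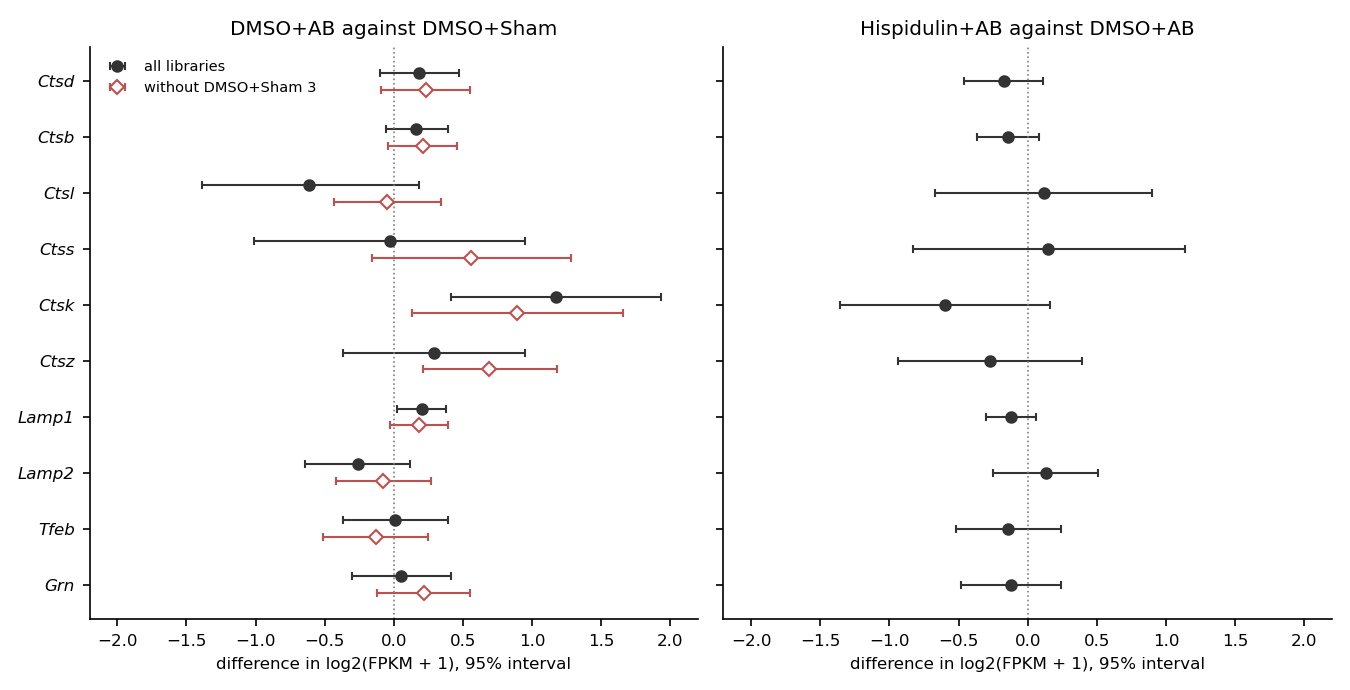
Difference in log2(FPKM + 1) of each of the 10 genes with its 95% interval from limma, for DMSO+AB against DMSO+Sham (left; filled points use all libraries, open diamonds leave out DMSO+Sham 3) and for Hispidulin+AB against DMSO+AB (right). The interval of Ctsk lies above 0 in both fits on the left (0.41 to 1.93 and 0.13 to 1.66), and every interval on the right includes 0.

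In the sham-operated hearts, Hispidulin+Sham against DMSO+Sham gave 0 of 10 genes, and 0% of all genes passed (limma; 287 genes at an unadjusted p under 0.05). Between Hispidulin+AB and Hispidulin+Sham 0 of 10 and 0% of all genes passed (847 at an unadjusted p under 0.05), and 2 of the 10 genes (Ctss and Ctsz) had groups that did not overlap, against 20.9% of all genes in either direction. In the last comparison, 17 of 11664 genes (0.146%) passed with the replicate number as a block, 209 with library weights and 51 of 11367 when only the libraries compared were fitted, none of them among the 10. In the average of the AB effect over DMSO and hispidulin, 0 of the 10 passed, against 7.39% of all genes.

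The 10 genes were set beside 8 lists of other genes of the pathway in DMSO+AB against DMSO+Sham, where 5.21% of all genes passed. Of 39 acid hydrolases and activators tested, 1 rose and 0 fell (median 0.01). It was Galns, which removes sulfate from keratan and chondroitin sulfate, with a difference of 0.78 (SE 0.14, limma adjusted p = 0.0141, 0.012 without DMSO+Sham 3 and 0.00244 to 0.152 over the alternatives). Its levels were 2.18, 2.24 and 3.01 FPKM in DMSO+Sham and 3.85, 5.40 and 5.71 FPKM in DMSO+AB, with no overlap. Of 19 lysosomal membrane genes, 0 rose and 2 fell (median -0.04). Npc1, the cholesterol exporter of the lysosome, fell by 0.91 (SE 0.16, limma adjusted p = 0.0111, 0.00642 without DMSO+Sham 3 and 0.00234 to 0.132 over the alternatives), from 18.8, 15.2 and 11.7 FPKM to 7.51, 6.98 and 8.03 FPKM, also with no overlap. Scarb2, which carries glucocerebrosidase to lysosomes, fell by 0.41 (SE 0.10, limma adjusted p = 0.0442, 0.105 without DMSO+Sham 3 and 0.0275 to 0.249 over the alternatives). Of 9 cardiomyocyte markers in this comparison, Ryr2 and Atp2a2 fell (Atp2a2 alone without DMSO+Sham 3) and 7 were negative (median -0.21). At an unadjusted p under 0.05 there were 5 of the 9 markers, beside 20.4% of all genes. Their summed FPKM was 44835 to 63606 in DMSO+Sham and 52737 to 57466 in DMSO+AB, and their part in the values of Npc1, Scarb2 and Mitf was not tested.

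Of 17 relatives of Tfeb and genes of its nutrient-sensing control, 0 rose and 1 fell (median -0.03), and 7 had an unadjusted p under 0.05, which 20.4% of all genes had. The gene that fell was Mitf, a transcription factor of the same family as Tfeb, which fell by 0.54 (SE 0.14, limma adjusted p = 0.0439, 0.0511 without DMSO+Sham 3 and 0.02 to 0.217 over the alternatives). Its levels were 12.7, 11.7 and 10.7 FPKM in DMSO+Sham and 8.87, 8.11 and 6.33 FPKM in DMSO+AB, without overlap. None passed among 5 other cathepsins (median -0.16), 3 cystatins and stefins, the inhibitors of cysteine cathepsins (0.23), 19 subunits of the proton pump that acidifies lysosomes (0.09), 9 receptors that sort cargo or bind progranulin (-0.10) and 22 autophagy genes (-0.11). Without DMSO+Sham 3 the medians of these lists, in the same order, were -0.08, 0.25, 0.07, -0.13 and 0.01, so that of the autophagy genes changed sign. With all libraries, the 2 largest differences in each list were -0.29 for Ctsh and -0.27 for Ctsf, and 0.41 for Cst6 and 0.23 for Cst3. They were 0.41 for Atp6v1h and 0.37 for Atp6v1b2, -0.72 for Tmem106b and -0.42 for Sort1, and -0.40 for Map1lc3b and 0.36 for Wipi1. Map1lc3b was highest in DMSO+Sham 3 (308 FPKM), and without that library its difference was -0.15 and that of Wipi1 0.32. Without DMSO+Sham 3, Atp6v1b2 rose in the proton pump list, and Flcn and Fnip2 fell in the list of Tfeb control in place of Mitf. In Hispidulin+AB against DMSO+AB, 0 genes of the 8 lists passed.

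**Figure D5:**
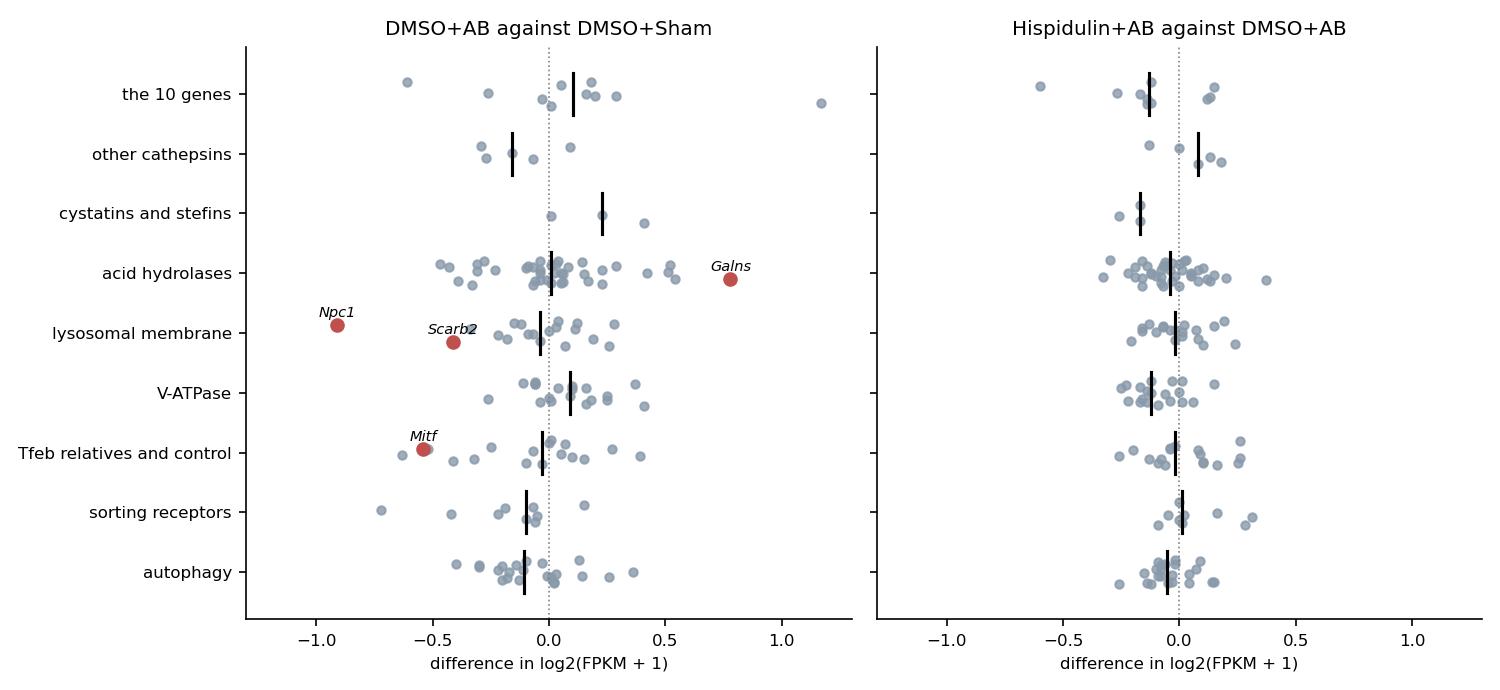
Difference in log2(FPKM + 1) of every tested gene of the 10 genes and of the 8 other lists, for DMSO+AB against DMSO+Sham (left) and Hispidulin+AB against DMSO+AB (right). Each point is 1 gene, the black bar the median of the list, and named red points had a limma adjusted p under 0.05, namely Galns to the right of 0 and Npc1, Scarb2 and Mitf to the left.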

How the data were processed

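Left ventricular RNA of 12 mice was sequenced as single-end 50-base reads of polyadenylated RNA on a BGISEQ-500. The authors deposited FPKM for 18079 genes, 1 column per mouse and rounded to 2 decimals. The submitters' processing notes name HISAT2 2.0.4, Bowtie2 2.2.5, RSEM 1.2.12 and DESeq2 1.4.5 without their roles, and the genome build and annotation are not given in the sources used here. The depth was sought in the steps between low FPKM, which did not give whole reads: 20.8% of their ratios came within 0.1 of an integer, where an even spread would give 20%.

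Groups came from the sample labels. Symbols were matched for 17947 genes (99.3%). log2(FPKM + 1) of the 11664 genes with at least 1 FPKM in at least 3 libraries was fitted with limma 3.58.1 in R 4.3.3, with 1 mean per group, a mean-variance trend and two-sided tests, adjusted by the Benjamini-Hochberg method and called under 0.05. The fit was tested on simulated data. Tables and promoter searches used Python 3.11.15 with pandas 2.3.3. The 10 genes and all lists were chosen with earlier results of these data known. Genes named in the other lysosome lists were those past the threshold in DMSO+AB against DMSO+Sham, up to 4 per list by size of change, or the 2 largest changes where fewer than 2 passed. Per cell type list, up to 3 genes of highest mean FPKM could be named, and per member the 3 genes of highest Pearson r. Flcn, Fnip2, Cd14, Col1a1, Postn, Col1a2, Ryr2, Atp2a2, Hyal2, Psap, Cd63, Saa3 and Lcn2 were named after their values were seen.

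In Hispidulin+AB against Hispidulin+Sham and in Hispidulin+Sham against DMSO+Sham, residuals of same-numbered libraries correlated by 0.191 and 0.229 on average. They correlated by at least 0.126 in every such pair. The labels give no pairing, and whether the replicate numbers pair the libraries was not tested. The alternatives were 0.1 in place of 1 inside the logarithm, a filter of 5 FPKM or none, median-of-ratios or quantile scaling, no trend and library weights. Others were the series of animal numbers as a covariate, the replicate block and only the libraries compared. An adjusted p of at most 0.001 with an absolute log2 change of at least 1 was also used. Further alternatives left out the 3 libraries high in Myl4 and Myl7, and each library in turn.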

Additional observations from a re-analysis of the deposited data

How the results depend on the processing

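Of 36 differences followed through the alternatives, not all of them printed above, 12 changed sign in some alternative (24 of 667 values). Of the values, 10 passed the threshold only in an alternative, and none lost a call, since none passed with the main settings. The count of the 10 genes past the threshold was 0 with the main settings in all 6 comparisons. With library weights it was 1 in DMSO+AB against DMSO+Sham (Ctsk) and 2 in AB against Sham averaged over DMSO and hispidulin (Ctsk and Ctsz). With the replicate block it was 1 in both (Ctsk, limma adjusted p = 0.0235 and 0.0262), and the block changed no other member's call. In DMSO+AB against DMSO+Sham, Mitf and Scarb2 did not pass with the block, while Galns and Npc1 did. Residuals of same-numbered libraries of DMSO+AB and DMSO+Sham correlated by -0.0887 on average, and a pairing of these libraries was not tested. Leaving out 1 library gave counts from 0 to 1 in both: Ctsk passed without DMSO+Sham 2 (limma adjusted p = 0.0339 and 0.0427) and without DMSO+AB 1 (0.0184 and 0.0244), and Ctsz in the average without DMSO+Sham 3. Ctsk was not tested with the filter of 5 FPKM, and comparisons over all 4 groups have no fit with only the libraries compared.

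The differences that changed sign in DMSO+AB against DMSO+Sham were those of Ctss (0.61 with library weights, -0.44 to 0.56 leaving out 1 library), Lamp2 (0.04 with library weights), Tfeb (-0.11 with library weights, -0.13 to 0.11 leaving out 1 library) and Grn. That of Grn was -0.03 with the animal number series, -0.02 without the 3 libraries high in Myl4 and Myl7 and -0.04 to 0.22 leaving out 1 library. In the average over DMSO and hispidulin they were those of Ctsl (-0.45 to 0.04 leaving out 1 library), Ctss, Tfeb and Grn (-0.04, 0.01 and -0.01 with the animal number series), Lamp2 (0.01 with library weights) and again Grn (-0.0013 to 0.13 leaving out 1 library, the lowest without Hispidulin+AB 2). In Hispidulin+AB against DMSO+AB they were those of Ctss (-0.15 with library weights, -0.10 to 0.56 leaving out 1 library), Lamp2 (-0.02 to 0.21 leaving out 1 library) and Grn (0.01 without the 3 libraries). For these settings the cause was not tested. With 3 mice per group and unknown read depth, the intervals of Ctsk, Ctsl and Ctss in DMSO+AB against DMSO+Sham spanned over 1.5 log2 units.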

Other observations

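Averaged over DMSO and hispidulin, AB against Sham gave calls in 3 of the 8 other lysosome lists (limma, Benjamini-Hochberg adjustment), where 7.39% of all genes passed. Without DMSO+Sham 3 it gave calls in 4 lists: Cd63, Atp6v1h and Atp6v1b2 then also rose, Flcn also fell, and Scarb2 was no longer called. Among 39 acid hydrolases and activators, Galns and Hyal2 rose and Psap fell. Hyal2, a hyaluronidase, differed by 0.40 on the log2 scale (SE 0.11, limma adjusted p = 0.0459, 0.0325 without DMSO+Sham 3 and 0.00442 to 0.138 over the alternatives). Psap, the precursor of the saposins, which help to break down sphingolipids, fell by 0.31 (SE 0.08, limma adjusted p = 0.0306, 0.0347 without DMSO+Sham 3 and 0.0018 to 0.136 over the alternatives). Galns differed by 0.69 (SE 0.10, limma adjusted p = 0.00377, 0.00247 without DMSO+Sham 3 and 0.000323 to 0.0648 over the alternatives). Of the 19 lysosomal membrane genes Npc1 fell by 0.76 (SE 0.11, limma adjusted p = 0.00359, 0.00123 without DMSO+Sham 3 and 0.000323 to 0.0784 over the alternatives). Scarb2 fell by 0.27 (SE 0.07, limma adjusted p = 0.0448), but its adjusted p was 0.0665 without DMSO+Sham 3 and 0.0244 to 0.232 over the alternatives, and it was not called with the replicate block. Of the 17 relatives of Tfeb and genes of its control Mitf fell by 0.40 (SE 0.10, limma adjusted p = 0.0298, 0.0253 without DMSO+Sham 3 and 0.00462 to 0.127 over the alternatives). Hyal2, Psap and Cd63 were named after their values were seen.

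The letters CACGTG were also searched in the promoters of the other lists. They were found for 2 of 4 other cathepsins with an entry (50%), 7 of 31 acid hydrolases with an entry (22.6%), 3 of 16 lysosomal membrane genes (18.8%), 4 of 14 proton pump subunits (28.6%), 5 of 15 Tfeb relatives and control genes (33.3%), 3 of 7 sorting receptors (42.9%) and 3 of 16 autophagy genes (18.8%), beside 11.9% of the tested genes with an entry. No test of these shares was made.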
